A study of Rattus rattus with 24 samples.

Results

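The genes described here encode the nuclear-encoded parts of the oxidative phosphorylation machinery of mitochondria. They were chosen by symbol alone, as the genes of the array annotation whose symbol begins with Nduf, Uqcr, Cox4 to Cox8 or Atp5, together with Sdha, Sdhb, Sdhc and Sdhd. Of the 14217 genes with a probe set of a single symbol, 86 met this rule: 34 genes of complex I, 6 assembly factors of complex I, 4 genes of complex II, 7 of complex III, 19 grouped with complex IV and 16 of complex V. For 77 of them the array held 1 such probe set. For the other 9, the probe set with the highest mean over all arrays was used.

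RNA came from rat oligodendrocyte precursor cell (OPC) cultures, prepared from the cortices of pups 4 to 7 days old by selection with A2B5 magnetic beads and expanded for 4 days in PDGF. The labels name the species as Rattus rattus, and the study's methods name Sprague Dawley rats. The cultures were then kept in differentiation medium with T3 at 45 nM plus quetiapine at 1 μM (the combination), T3 at 45 nM, quetiapine at 1 μM, or the DMSO vehicle as control, each for 96 or 48 h. The B27 supplement of the medium holds some T3, so the control cultures were not free of it, and neither were those in quetiapine alone. Each of the 8 groups had 3 arrays, from 3 biological replicates that each supplied every condition, and the same 3 control arrays of a time point served all comparisons with control at that time. Each compound was used at 1 dose.

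Oxidative phosphorylation takes place in the inner mitochondrial membrane. Complex I (NADH dehydrogenase) and complex II (succinate dehydrogenase) pass electrons to ubiquinone, complex III hands them to cytochrome c, complex IV (cytochrome c oxidase) reduces oxygen, and complex V (ATP synthase) makes ATP from the proton gradient that complexes I, III and IV build. Apart from complex II, whose subunits are all nuclear, each complex also holds subunits made from mitochondrial DNA. Thyroid hormone is a textbook regulator of mitochondrial content and respiration in many tissues. Oligodendrocytes have a high demand for energy and acetyl units while they build myelin membrane, and mature ones can also draw on glycolysis.

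Values are log2 expression after the authors' RMA normalization, so a difference of 1 is a factor of 2. The medians of the 24 arrays lay between 6.43 and 6.51, and arrays of 1 group correlated with Pearson's r of 0.986 to 0.996 across probe sets. Differences between groups were tested with limma over 31042 probe sets, with Benjamini-Hochberg adjustment over all of them, and a gene was called at an adjusted p under 0.05 with no limit on its fold change. At 96 h the cultures also differed in the RNA of cell type and cell cycle markers. All 11 measured markers of mature oligodendrocytes were called higher in the combination than in control (median log2 change 2.17), all 9 cell cycle genes were called lower (median −1.86), 2 of 4 precursor markers were called lower (median −0.85), and 5 of 9 astrocyte markers were called lower and 1 higher (median −1.07). Over all genes, 15.2% were called higher and 20% lower in that comparison. The astrocyte marker Gfap averaged 13.07 in the combination and 13.52 in control, so astrocyte RNA was present in all of these cultures. Microglia markers averaged 5.17 to 5.36 on the combination arrays and 5.03 to 5.77 on the control arrays at 96 h. The actin control probe sets, whose 3′ signal runs above the 5′ signal where RNA is degraded, gave a 3′ less 5′ difference of 0.704 to 0.768 in the combination and 0.643 to 0.665 in control at 96 h. The same difference for GAPDH ran the other way, at −0.132 to −0.0920 in the combination and −0.107 to −0.0565 in control. In RNA from whole cultures, fewer cells of a type and less RNA per cell cannot be told apart, and the part of these shifts in the results below was not tested.

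The oxidative phosphorylation genes varied little across the 8 groups. The difference between the highest and the lowest group mean of a gene had a median of 0.185 on the log2 scale, against 0.388 over all 14217 genes. It was under 0.5 for 84 of the 86 genes, a share of 97.7%, against 61.3% of all genes. The exceptions were Cox6b2, at 0.67, and Ndufs6, at 0.61. The spread between arrays of 1 group was smaller as well, with a median SD of 0.0865 for these genes and 0.137 for all genes. These genes were also brighter than most. The median of their mean log2 values was 11.75, against 7.74 over all genes. A mean under 6 was found for 5 of the 86 genes and for 4112 of the 14217. The part of signal level in the smaller ranges, spreads and shares called was not tested. The mean over all 86 genes lay between 10.94 and 11.14 on every one of the 24 arrays.

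**Figure D1:**
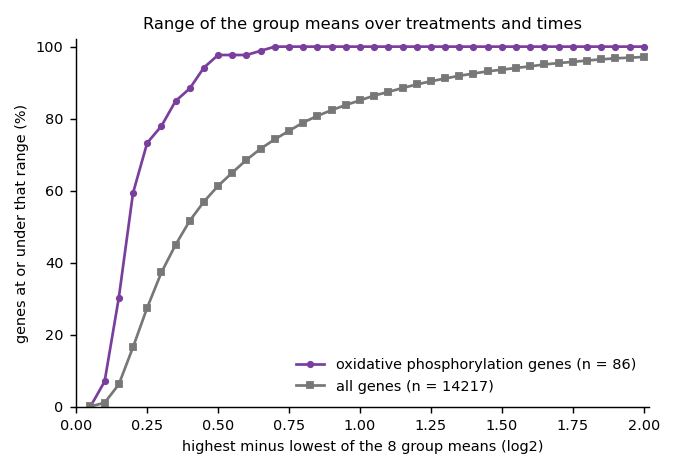
Share of genes (percent, vertical axis) whose highest and lowest group means over the 8 groups differ by no more than the log2 value on the horizontal axis, for the 86 oxidative phosphorylation genes and for all 14217 genes. At a difference of 0.2 the share is 59.3% for the oxidative phosphorylation genes and 16.5% for all genes, and at 0.3 it is 77.9% and 37.2%. The sets also differ in signal level, with median log2 values of 11.75 and 7.74.

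In the fit without a replicate term, only the combination at 96 h gave calls against control. There, 7 of the 86 genes were called higher and 3 lower, which is 8.14% and 3.49% of them, while 15.2% of all genes were called higher and 20% lower. At an unadjusted p under 0.05, 18.6% of the oxidative phosphorylation genes passed, against 45.4% of all genes. The median log2 change was −0.05 for these genes and −0.01 for all genes. All 3 combination values were above all 3 control values in 11 genes (12.8%) and below them in 15 (17.4%), beside 20.3% and 25.3% of all genes. The change was within 0.2 of 0 in either direction for 68 of the 86 genes (79.1%, against 46.2% of all genes), and the 95% interval of the change lay inside a 1.5-fold range on both sides of 0 for 80 of them (93.0%, against 59.7%).

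The other 5 treatments against control gave no call among the 86 genes in limma without a replicate term. T3 at 96 h gave 0 calls where 6.58% of all genes were called higher and 8.08% lower, with 5 of the 86 at an unadjusted p under 0.05. Quetiapine at 96 h gave 0 calls where 4.21% of all genes were higher and 3.04% lower, again with 5 at an unadjusted p under 0.05. At 48 h there were 0 calls for the combination (3.12% and 4.22% of all genes, 5 at an unadjusted p under 0.05), 0 for T3 (1.06% and 0.366%, 3 at an unadjusted p under 0.05) and 0 for quetiapine (0.134% and 0.0492%, 0 at an unadjusted p under 0.05).

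With the biological replicate as a block in the fit, more genes of the whole array were called and so were more of these. The combination at 96 h then gave 10 higher and 7 lower, where the block gave 19.9% and 27.6% over all genes. T3 at 96 h gave 4 higher and 2 lower (11.9% and 18.2% of all genes), and quetiapine at 96 h gave 2 lower (8.96% higher and 12.5% lower over all genes). At 48 h the combination gave 3 higher and 2 lower, against 10.8% and 16.2% of all genes. Each of these shares stayed below the share over all genes called in the same fit and direction.

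**Figure D2:**
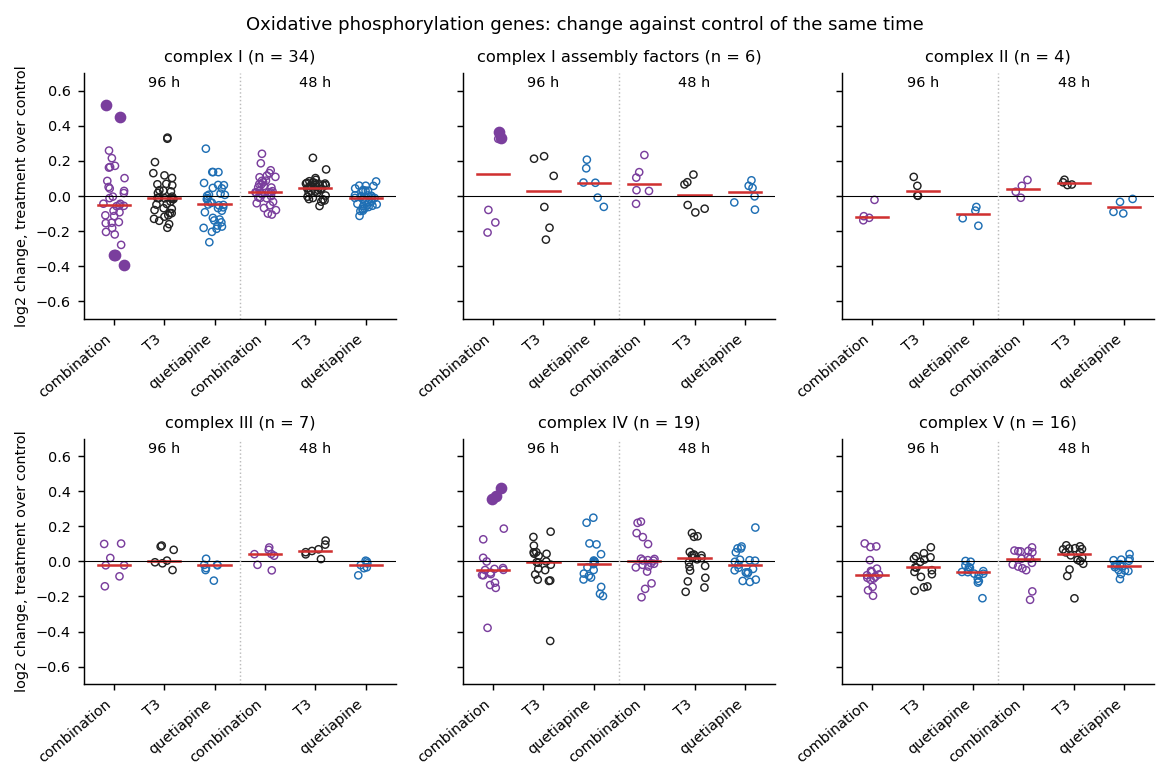
Log2 change against control of each of the 86 genes (points; red bars are medians), by complex, in the combination, T3 and quetiapine at 96 h and at 48 h, with filled points for genes called at an adjusted p under 0.05. Most points lie within 0.2 of 0. In the fit shown, which has no replicate block, the 10 called genes, 7 higher and 3 lower, are all in the combination at 96 h. They belong to complex I, its assembly factors or complex IV.

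Complex I takes electrons from NADH through a chain of iron-sulfur clusters in its matrix arm. The nuclear core subunits on the array were Ndufs1, Ndufv1 and Ndufv2, of the part that oxidizes NADH, and Ndufs3, Ndufs7 and Ndufs8, of the part that leads to ubiquinone. Ndufs3, Ndufs7 and Ndufs8 were called lower in the combination at 96 h, where 15.2% of all genes were called higher and 20% lower. The other core subunits were not called, with log2 changes of −0.15 for Ndufs1 (adjusted p = 0.145), −0.11 for Ndufv1 (adjusted p = 0.263) and −0.06 for Ndufv2 (adjusted p = 0.696). The median of the 6 was −0.24, with 6 of 6 below 0, beside −0.01 over the 28 accessory subunits, 15 of which were below 0, and −0.01 over all genes.

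Ndufs7 carries the iron-sulfur cluster next to the ubiquinone site. At 96 h it measured 10.55, 10.58 and 10.65 in the combination, 10.86, 10.86 and 10.77 in T3, 10.72, 10.92 and 10.83 in quetiapine, and 11.10, 11.01 and 10.87 in control. The 3 combination arrays were below all other arrays of that time point, and the arrays of T3 and quetiapine lay mostly between them and control. The difference between the combination and control was −0.40 (SE 0.0814, adjusted p = 0.00387), with means of 10.59 ± 0.0514 and 10.99 ± 0.116 (SD, n = 3 each). The changes in T3 and quetiapine, −0.16 and −0.17, were not called (adjusted p = 0.253 and 0.281).

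Ndufs3 is a core subunit of the same module without a cluster of its own. It measured 10.66, 10.57 and 10.47 in the combination, 10.84, 10.80 and 10.64 in T3, 10.63, 10.68 and 10.61 in quetiapine, and 10.99, 10.93 and 10.79 in control. Both the combination and the quetiapine arrays were below all 3 control arrays, and the T3 arrays overlapped them. The combination differed from control by −0.34 (SE 0.0837, adjusted p = 0.0111). Quetiapine differed from control by −0.26, which passed only with the replicate block (adjusted p = 0.0987 without it and 0.0164 with it), and T3 by −0.14 (adjusted p = 0.338).

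Ndufs8 carries a pair of clusters in the same chain. It measured 10.61, 10.43 and 10.45 in the combination, 10.86, 10.70 and 10.64 in T3, 10.68, 10.64 and 10.56 in quetiapine, and 10.96, 10.77 and 10.76 in control. In each group the array of replicate 1 was the highest, and within each replicate the combination was lowest and control highest. The difference was −0.33 in the combination (SE 0.0884, adjusted p = 0.0148), and it was no longer called without combination replicate 2 (adjusted p = 0.0600) or without control replicate 1 (adjusted p = 0.0560). In quetiapine the change was −0.20 (adjusted p = 0.223, and 0.0432 with the replicate block), and in T3 it was −0.10 (adjusted p = 0.562).

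**Figure D3:**
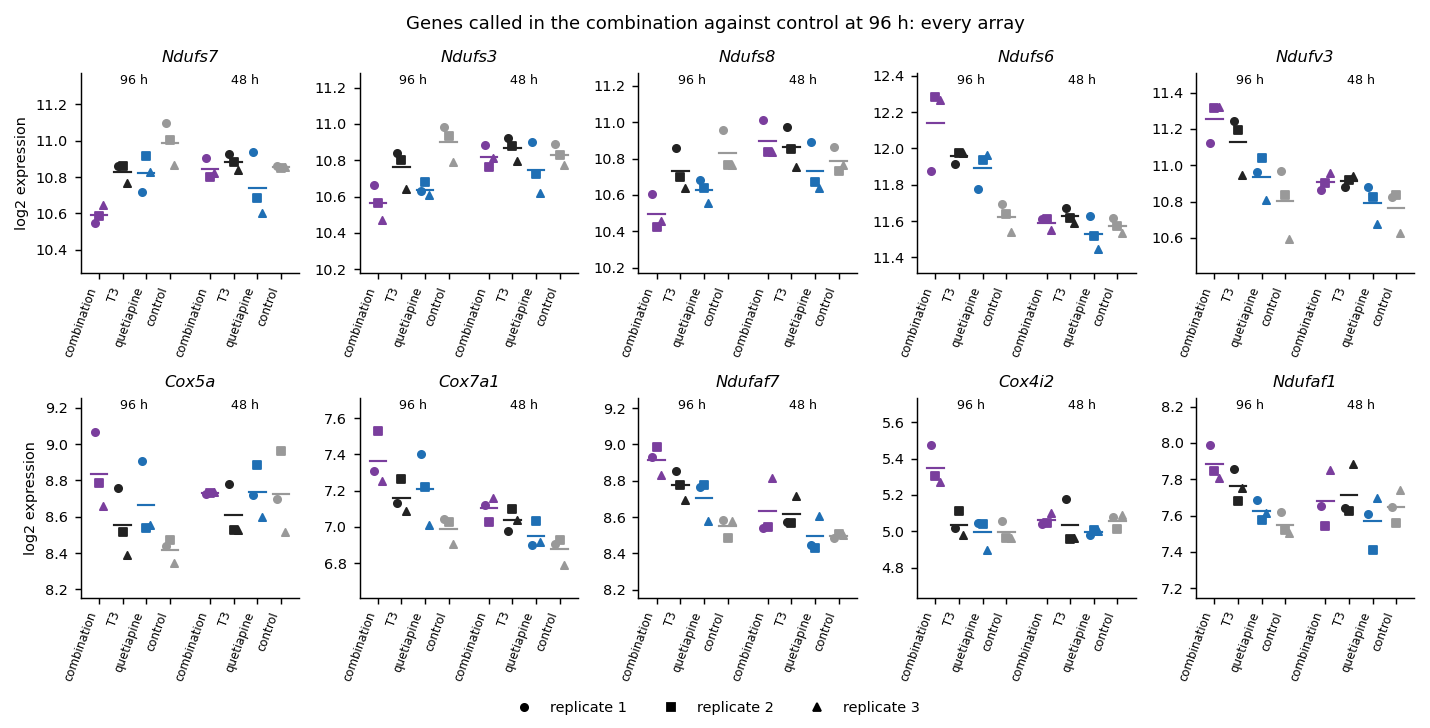
Log2 expression on each array (points, shaped by replicate) with the group means (bars, n = 3) for the 10 genes called in the combination against control at 96 h. For Ndufs7 the 3 combination arrays at 96 h, at 10.55 to 10.65, are below the control arrays, at 10.87 to 11.10, and for Ndufs6 they are above them, at 11.87 to 12.28 against 11.54 to 11.69.

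Accessory subunits surround the core of complex I and are needed for its assembly and stability. Among the 28 on the array, Ndufs6 and Ndufv3 were called higher in the combination at 96 h and 0 were called lower. Over all genes, 15.2% were called higher and 20% lower. Ndufs6 is a zinc-binding subunit at the junction of the matrix arm. It measured 11.87, 12.28 and 12.27 in the combination, 11.92, 11.98 and 11.98 in T3, 11.78, 11.94 and 11.97 in quetiapine, and 11.69, 11.64 and 11.54 in control. All 9 treated arrays at 96 h were above the 3 control arrays, and combination replicates 2 and 3 were above every other array. The combination rose over control by 0.52 (SE 0.108, adjusted p = 0.00420), which is 1.43-fold. T3 was 0.33 above control, called only with the replicate block (adjusted p = 0.0729 without it and 0.0297 with it), and quetiapine 0.27 (adjusted p = 0.185, and 0.0847 with the block).

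Ndufv3 is a small subunit of the NADH-oxidizing part. It measured 11.12, 11.32 and 11.32 in the combination, 11.24, 11.19 and 10.94 in T3, 10.96, 11.04 and 10.81 in quetiapine, and 10.97, 10.84 and 10.59 in control. The combination arrays were above all control arrays, and those of T3 and quetiapine overlapped them. The combination differed by 0.45 (SE 0.118, adjusted p = 0.0136), but the call was lost without combination replicate 2 (adjusted p = 0.0520) or without control replicate 3 (adjusted p = 0.0565). The second probe set of Ndufv3 differed by 0.02 in the same comparison (adjusted p = 0.922), so the rise was a measurement of 1 of its probe sets. T3 was 0.33 above control on the first probe set (adjusted p = 0.103, and 0.0355 with the replicate block).

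The rest of the accessory subunits had log2 changes between −0.28 and 0.26 in the combination at 96 h. The block added calls for Ndufb8 (0.26, adjusted p = 0.0261) and Ndufs4 (0.16, adjusted p = 0.0465) on the higher side, both of which missed the threshold without it (adjusted p = 0.158 and 0.0744). On the lower side it added Ndufa5 (−0.28, adjusted p = 0.00767), Ndufab1 (−0.22, adjusted p = 0.0198) and Ndufa12 (−0.20, adjusted p = 0.0323), whose adjusted p without it were 0.144, 0.102 and 0.0565. Ndufab1 is also the acyl carrier protein of mitochondrial fatty acid synthesis. With the block, accessory subunits were called in both directions, and 19.9% of all genes were called higher and 27.6% lower.

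Assembly factors build complex I but are absent from the finished enzyme. Of the 6 that the symbol rule took, Ndufaf1 and Ndufaf7 were called higher in the combination at 96 h, beside 15.2% of all genes. Ndufaf1, a chaperone of the membrane arm intermediate, measured 7.99, 7.85 and 7.81 in the combination, 7.85, 7.68 and 7.75 in T3, 7.69, 7.57 and 7.62 in quetiapine, and 7.62, 7.52 and 7.51 in control. Ndufaf7, a methyltransferase that modifies a core subunit, measured 8.93, 8.98 and 8.83 in the combination, 8.86, 8.78 and 8.70 in T3, 8.77, 8.78 and 8.58 in quetiapine, and 8.58, 8.49 and 8.58 in control. For both genes the combination and the T3 arrays were above all control arrays, while a quetiapine array reached the level of control.

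The combination differed from control by 0.33 for Ndufaf1 (SE 0.0774, adjusted p = 0.00765) and by 0.37 for Ndufaf7 (SE 0.0807, adjusted p = 0.00570). The second probe set of Ndufaf7 differed by 0.11 (adjusted p = 0.309). In T3 the differences were 0.21 and 0.23, called only with the replicate block (adjusted p = 0.0239 and 0.0391, against 0.106 and 0.0989 without it). Ndufaf3, which acts early in the assembly of the matrix arm, was 0.33 higher in the combination (adjusted p = 0.127, and 0.00570 with the block), and its partner Ndufaf4 was 0.15 lower (log2 change −0.15, adjusted p = 0.229). Ndufaf8 had a log2 change of −0.25 in T3 (adjusted p = 0.113, and 0.0439 with the block).

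Complex II oxidizes succinate and also belongs to the citric acid cycle. None of its 4 genes was called in a treatment against control, with limma and with either fit. In the combination at 96 h the log2 changes were −0.11 for the flavoprotein Sdha (adjusted p = 0.352), −0.12 for the iron-sulfur protein Sdhb (adjusted p = 0.364), and −0.14 and −0.02 for the membrane anchors Sdhc and Sdhd (adjusted p = 0.139 and 0.857). In T3 they were 0.06, 0.00, 0.00 and 0.11, and in quetiapine −0.17, −0.06, −0.08 and −0.13, in the same order of genes. The 4 genes were thus all above 0 in T3 at both time points and all below 0 in quetiapine at both time points, each by a small amount that did not pass the test, and the T3 and quetiapine values share their control arrays.

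Complex III had no call against control either. The 7 genes lay between −0.14 and 0.10 in the combination at 96 h, with a median of −0.02. The lowest was Uqcrc1, a core protein of the complex (−0.14, adjusted p = 0.360), and the highest were the small subunits Uqcr10 (0.10, adjusted p = 0.370) and Uqcr11 (0.10, adjusted p = 0.326). The largest changes in the single treatments at 96 h were 0.09 in T3, for Uqcr10 (adjusted p = 0.538), and −0.11 in quetiapine, for Uqcrc1 (adjusted p = 0.635). At 48 h all 7 genes were above 0 in T3, with a median of 0.06, and Uqcr11 was the highest at 0.12 (adjusted p = 0.463). The 7 changes share the same control arrays and are not independent of one another.

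Complex IV has several subunits that exist as paired isoforms of different tissues, and its calls lay among these and the subunit Cox5a. Cox4i2, the isoform of subunit 4 known from lung, measured 5.47, 5.30 and 5.27 in the combination, 5.02, 5.11 and 4.98 in T3, 5.05, 5.04 and 4.89 in quetiapine, and 5.05, 4.96 and 4.96 in control. The 3 combination arrays were above all others, and the other groups overlapped. The difference from control was 0.35 (SE 0.0799, adjusted p = 0.00643), on a probe set whose mean was under 6, near the low end of the array, and the deposited values carry no detection call. Cox4i1, the isoform found in most tissues, averaged 12.81 ± 0.0131 in the combination and 12.86 ± 0.0582 in control (SD, n = 3 each) and differed by −0.05 (adjusted p = 0.632).

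Cox7a1, the heart and muscle isoform of subunit 7a, measured 7.31, 7.53 and 7.25 in the combination, 7.13, 7.26 and 7.09 in T3, 7.40, 7.22 and 7.01 in quetiapine, and 7.04, 7.03 and 6.91 in control. The combination and T3 arrays were above all control arrays, and 1 quetiapine array fell among them. The combination differed by 0.37 (SE 0.110, adjusted p = 0.0248), a call that was lost without combination replicate 2 (adjusted p = 0.104) or control replicate 3 (adjusted p = 0.0867). Cox5a, a subunit with a single form, measured 9.06, 8.79 and 8.66 in the combination, 8.76, 8.52 and 8.39 in T3, 8.91, 8.54 and 8.55 in quetiapine, and 8.44, 8.47 and 8.34 in control. The combination and quetiapine arrays were above all control arrays. The combination differed by 0.42 (SE 0.136, adjusted p = 0.0379), with a call that was lost when any 1 control array, combination replicate 1 or 2, or T3 replicate 2 was left out (adjusted p of 0.0520 to 0.128).

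The other isoform genes of complex IV were not called in the combination at 96 h. Their log2 changes were −0.06 for Cox6a1 (adjusted p = 0.602), −0.04 for the muscle isoform Cox6a2 (adjusted p = 0.833), −0.05 for Cox8a (adjusted p = 0.633) and 0.19 for the muscle isoform Cox8b (adjusted p = 0.270). Cox7a2l, which helps to join complexes III and IV into supercomplexes, differed by −0.12 (adjusted p = 0.155). Ndufa4, named as a complex I gene but now counted with complex IV, differed by −0.08 (adjusted p = 0.570), and its paralog Ndufa4l2 by −0.13 (adjusted p = 0.552). The probe sets of Cox4i2, Cox6a2, Cox7b2, Cox8b and the pseudogene Cox6c-ps1 all averaged under 6, which limits what their values can show.

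Cox6b2, known as the testis isoform of subunit 6b, had the widest range of group means, but its arrays differed between biological replicates far more than between treatments. At 96 h it measured 8.29, 7.61 and 7.02 in replicates 1, 2 and 3 of the combination, 8.43, 7.25 and 7.02 in T3, 8.76, 7.69 and 7.02 in quetiapine, and 8.99, 7.71 and 7.35 in control. Replicate 1 was the highest and replicate 3 the lowest in each group. The log2 change was −0.38 in the combination (adjusted p = 0.664, and 0.0242 with the replicate block) and −0.45 in T3 (adjusted p = 0.689, and 0.0173 with the block).

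Complex V had no call in a treatment against control at 96 h with either fit. Its 16 genes lay between −0.20 and 0.10 in the combination, with a median of −0.08. The lowest was Atp5mf, subunit f of the membrane part (−0.20, adjusted p = 0.0634), followed by Atp5f1e, the epsilon subunit of the catalytic part (−0.17, adjusted p = 0.217). Atp5mc3, one of the genes for the rotating ring, differed by −0.08 (adjusted p = 0.378). In quetiapine, 15 of the 16 were below 0, with a median of −0.06 and none called. All 16 were set against the same control arrays, so these changes are not independent and the count is a description only.

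Atp5if1 encodes the inhibitor that blocks ATP hydrolysis by complex V. Its main probe set had log2 changes of −0.15 in the combination (adjusted p = 0.290), −0.15 in T3 and −0.21 in quetiapine (adjusted p = 0.243) at 96 h. Its second probe set was called higher in the combination, by 0.36 (adjusted p = 0.00962), so the main and second probe sets disagreed in sign. The array held 3 probe sets for this gene. The remaining one was measured too, but its value in this comparison is not reported here, so no direction is given for the gene. At 48 h in the combination the main probe set differed by −0.22 (adjusted p = 0.168, and 0.0395 with the replicate block), and Atp5mf by −0.17, called with the block as well (adjusted p = 0.0335).

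The treatments were also compared with each other at 96 h. Quetiapine against T3 gave 0 calls among the 86 genes in limma, where 1.01% of all genes were called higher and 2.3% lower, with 5 of the 86 at an unadjusted p under 0.05. At 48 h it also gave 0, where 0.696% of all genes were higher and 1.46% lower, with 4 at an unadjusted p under 0.05. At 48 h 13 genes had all 3 quetiapine values below all 3 T3 values and 3 had them above, which is 15.1% and 3.49% of the 86, beside 9.01% and 9.44% of all genes. Of the 86 genes, only Ndufb8, a membrane arm subunit, passed with the replicate block, with a log2 change of −0.28 (adjusted p = 0.0379, where the block called 5.14% of all genes higher and 6.91% lower).

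The combination against T3 gave 0 calls (1.29% of all genes higher and 1.04% lower, with 4 of the 86 at an unadjusted p under 0.05). With the block it gave Cox4i2 higher, by 0.31 (adjusted p = 0.0157, against 0.0758 without it), and Ndufs8 lower (−0.24, adjusted p = 0.0313, against 0.206), where 6.06% of all genes were higher and 8.86% lower. The combination against quetiapine gave 1 call, Cox4i2, higher by 0.35 (adjusted p = 0.0237), where 4.36% of all genes were higher and 4.87% lower. That call was lost without combination replicate 2 (adjusted p = 0.0656), quetiapine replicate 2 (adjusted p = 0.0600) or quetiapine replicate 3 (adjusted p = 0.101). With the block 5 genes were called higher and 0 lower in this comparison (10.1% and 13.7% of all genes): Cox4i2, Cox8b (0.33), Ndufv3 (0.32), Ndufb8 (0.30) and Ndufaf1 (0.26).

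The interaction, which is the log2 change in the combination less the sum of the changes in T3 and quetiapine, gave 0 calls in limma at 96 h. It was called higher for 0.00703% and lower for 0.0422% of all genes. Of the 86 genes 1 was at an unadjusted p under 0.05. That was Cox4i2, with an interaction of 0.31 (unadjusted p = 0.0187 in limma) on its dim probe set. The median interaction over the 86 genes was 0.02. Ndufs7, Ndufs6 and Ndufaf1 were picked as genes called in the combination. For these 3 the combination was farther from control than either single compound. No departure from a sum of the 2 single changes was called for any of the 86 genes with 3 arrays a group.

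Between 96 and 48 h, the control cultures gave 0 calls among these genes in limma, with 3 at an unadjusted p under 0.05, and the whole array gave few (0.0141% higher and 0.0141% lower). T3 cultures gave 1 call, Ndufs6, higher at 96 h by 0.33 (adjusted p = 0.0303), where 3.36% of all genes were higher and 4.97% lower. Quetiapine cultures gave the same 1 gene, higher by 0.36 (adjusted p = 0.0286), where 2.58% were higher and 0.844% lower. Leaving out single arrays lost the T3 call in 5 of 24 cases, each time an array of T3 at 96 or 48 h (adjusted p up to 0.122), and the quetiapine call in 4 of 24, each time a quetiapine array (adjusted p up to 0.121). With the replicate block T3 gave 1 higher and 3 lower (8.83% and 15.3% of all genes) and quetiapine 2 higher and 2 lower (6.51% and 7.53%).

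The combination cultures gave 7 genes higher and 7 lower at 96 h than at 48 h, where 11.3% of all genes were called higher and 15.9% lower. Ndufs6 rose most, by 0.55 (adjusted p = 0.000168). At 48 h it measured 11.61, 11.61 and 11.55 in the combination and 11.62, 11.57 and 11.53 in control, so the groups overlapped then, in contrast to the 96 h arrays given above. Cox8b measured 4.10, 4.46 and 4.28 at 96 h and 3.95, 3.86 and 3.88 at 48 h, a rise of 0.38 (adjusted p = 0.0109) on a dim probe set. Ndufv3 rose by 0.34 (adjusted p = 0.0168), and the second probe set of that gene had a log2 change of −0.04.

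The other 4 genes called higher at 96 h in the combination were Cox4i2, Ndufaf7, Cox7a1 and Uqcr11. Uqcr11, the smallest subunit of complex III, measured 12.10, 12.13 and 12.19 at 96 h and 11.98, 11.95 and 11.94 at 48 h, with no overlap and a difference of 0.19 (adjusted p = 0.0211). The calls of Cox8b, Ndufv3, Ndufaf7, Cox7a1 and Uqcr11 were each lost in 1 to 14 of the 24 cases with 1 array left out, always including the case without combination replicate 2 at 96 h (adjusted p of 0.0840, 0.0754, 0.0802, 0.251 and 0.0553), while those of Ndufs6 and Cox4i2 were kept in all 24.

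On the lower side were the core subunits Ndufs3, Ndufs7 and Ndufs8, the accessory subunits Ndufab1 and Ndufb9, the assembly factor Ndufaf4 and Sdhb. Ndufaf4 measured 9.11, 8.95 and 9.10 in the combination at 96 h and 9.65, 9.54 and 9.38 at 48 h, with no overlap and a change of −0.47 (SE 0.106, adjusted p = 0.00324). Ndufs8 measured 11.01, 10.84 and 10.83 in the combination at 48 h, all above its 96 h arrays, and changed by −0.40 (adjusted p = 0.00248). Ndufab1 measured 11.85, 11.57 and 11.59 at 96 h and 11.99, 11.99 and 12.02 at 48 h, a change of −0.33 (adjusted p = 0.00266). These 3 calls were kept without any single array.

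Ndufs3 and Ndufs7 changed by −0.25 each (adjusted p = 0.0251 and 0.0279), Sdhb by −0.22 (adjusted p = 0.0345) and Ndufb9 by −0.18 (adjusted p = 0.0358). Each of these 4 was lost in 3 to 5 of the 24 cases, all of them without an array of the combination (adjusted p up to 0.167, for Sdhb without combination replicate 3 at 96 h). With the replicate block 8 genes were called higher and 20 lower (15.5% and 23.6% of all genes). In 24 of the 86 genes (27.9%) all 3 values at 96 h were below all 3 at 48 h, and in 10 (11.6%) they were above, beside 23.4% and 17.2% of all genes.

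Whether the effect of a treatment differed between 96 and 48 h was tested as a difference of the changes against control. For the combination 2 genes were called higher and 2 lower, where 4.91% of all genes were higher and 3.26% lower. The values were 0.50 for Ndufs6 (SE 0.123, adjusted p = 0.0188), 0.35 for Cox4i2 (SE 0.0991, adjusted p = 0.0395), −0.38 for Ndufs7 (SE 0.112, adjusted p = 0.0463) and −0.44 for Ndufs8 (SE 0.124, adjusted p = 0.0374). T3 gave 0 calls in limma (0.0563% of all genes higher and 0% lower, with 1 of the 86 at an unadjusted p under 0.05), and quetiapine gave 0 (0.134% and 0%, with 1 at an unadjusted p under 0.05). For Ndufs6 the T3 and quetiapine values were 0.28 and 0.31 (adjusted p = 0.689 and 0.637). With the replicate block all 4 were called again (adjusted p = 0.00881 for Ndufs6, 0.0126 for Cox4i2, 0.0174 for Ndufs7 and 0.000360 for Ndufs8), and Ndufs3 was called lower as well (−0.32, adjusted p = 0.00757, against 0.0906 without it), where the block called 9.43% of all genes higher and 12.5% lower. In the fit without the block and with 1 of the 24 arrays left out in turn, the call of Ndufs6 was lost in 3 cases (highest adjusted p = 0.0655), that of Ndufs8 in 7 (0.110), that of Cox4i2 in 9 (0.0919) and that of Ndufs7 in 19 (0.117). For Ndufs6 these cases were combination replicates 2 and 3 and control replicate 3 at 96 h, and for the other genes the highest value came without combination replicate 1 at 48 h.

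Biological replicates differed in these genes in the same way in every group. The mean over the 86 genes was highest in replicate 1 and lowest in replicate 3 in 8 of 8 groups, averaging 11.11, 11.03 and 10.98 in replicates 1, 2 and 3, while the array medians averaged 6.46, 6.48 and 6.48. Of the 86 genes, 27 (31.4%) were highest in replicate 1 in all 8 groups, against 5.13% of all genes, and 17 (19.8%) were lowest in replicate 3 in all 8, against 1.87%. The precursor markers were also highest in replicate 1 in 8 of 8 groups, with averages of 11.07, 10.68 and 10.56. The astrocyte markers were lowest in replicate 1 in 8 of 8, with averages of 9.80, 10.48 and 10.46. The microglia markers were highest in replicate 2 in 8 of 8, at 5.16, 5.75 and 5.28. Lineage transcription factors were lowest in replicate 3 in 8 of 8, at 11.42, 11.27 and 10.89. Markers of mature oligodendrocytes were lowest in replicate 1 and highest in replicate 3 in 7 groups each, at 10.09, 10.43 and 10.75, and cell cycle genes were lowest in replicate 2 in 8 of 8, at 9.54, 9.04 and 9.53. The part of these markers in the difference between replicates was not tested.

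**Figure D4:**
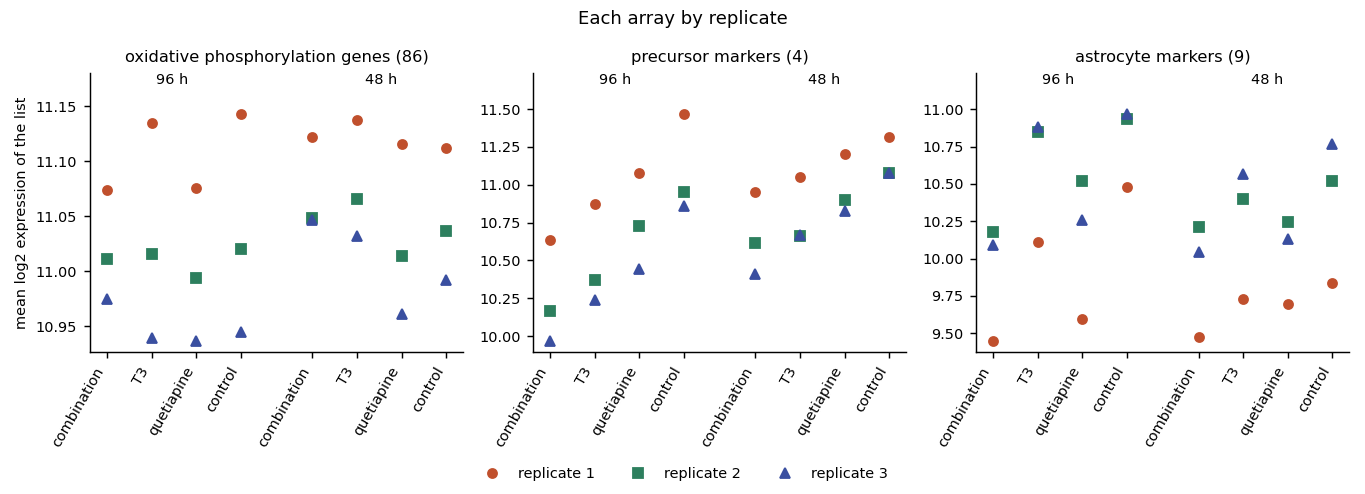
Mean log2 expression on each array (points, coloured by biological replicate) of the 86 oxidative phosphorylation genes, the 4 precursor markers and the 9 astrocyte markers, by group. The mean of the oxidative phosphorylation genes is highest in replicate 1 and lowest in replicate 3 in 8 of 8 groups, and in replicate 1 the precursor markers are highest and the astrocyte markers lowest in 8 of 8.

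Other mitochondrial gene lists were set beside the oxidative phosphorylation genes. In the combination at 96 h their called members ranged more widely in change, from −0.93 to 1.07, against −0.40 to 0.52 for the called oxidative phosphorylation genes, although many lay within that span. The lists held more called genes, and not all were as bright. Assembly factors outside the symbol rule averaged 8.78 in the combination and biogenesis regulators 8.21. Citric acid cycle genes averaged 10.92, carriers 11.16 and the oxidative phosphorylation genes 11.02. The part of either difference in the wider span was not tested. Of 13 citric acid cycle genes, 3 were called higher and 3 lower, with a median of −0.05, beside the 15.2% and 20% of all genes given above. Subunits of a single enzyme went opposite ways: Idh3a, the catalytic subunit of the NAD-linked isocitrate dehydrogenase, rose by 0.63 (SE 0.0947, adjusted p = 0.000594), while its partners Idh3b and Idh3g had log2 changes of −0.37 (adjusted p = 0.00188) and −0.42 (adjusted p = 0.00203). Pdha1, of the pyruvate dehydrogenase complex, and Ogdh, of the oxoglutarate dehydrogenase complex, rose by 0.40 and 0.37 (adjusted p = 0.00383 and 0.00826). Suclg2, the GTP-forming subunit of succinyl-CoA ligase, had a log2 change of −0.93 (SE 0.147, adjusted p = 0.000772).

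Of 11 genes for cytochrome c, electron carriers and membrane carriers, 3 were called lower and 0 higher, with a median of −0.21. Over all genes, 20% were called lower and 15.2% higher. With the replicate block 7 were lower (19.9% of all genes higher and 27.6% lower in that fit). The 3 called without the block were Etfb, of the electron transfer flavoprotein (−0.76, adjusted p = 0.00114), the ADP/ATP carrier Slc25a5 (−0.37, adjusted p = 0.00330) and the outer membrane channel Vdac1 (−0.35, adjusted p = 0.0424). The call of Vdac1 was lost in 10 of 12 cases with 1 array left out (adjusted p of up to 0.154, without combination replicate 3). Slc25a5 and Vdac1 move ATP and other metabolites between mitochondria and cytosol.

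Of 32 assembly factors outside the symbol rule, 9 were called higher and 8 lower, with a median of 0.06, beside 15.2% and 20% of all genes. The copper chaperone Cox17 rose by 1.07 (SE 0.133, adjusted p = 0.000176), Sdhaf4, an assembly factor of complex II, by 1.00 (adjusted p = 0.000379) and Cox14, of complex IV, by 0.62 (adjusted p = 0.00165). On the lower side were Cox20, of complex IV (−0.68, adjusted p = 0.000741), Bcs1l, which inserts the Rieske protein in complex III (−0.56, adjusted p = 0.00230), and Atpaf2, of complex V (−0.48, adjusted p = 0.00955).

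Of 17 regulators of mitochondrial gene expression and biogenesis, 3 were called higher and 6 lower, with a median of −0.27. Over all genes, 15.2% were called higher and 20% lower. The mitochondrial RNA polymerase Polrmt rose by 0.37 (adjusted p = 0.00638), the ribosomal RNA methyltransferase Tfb1m by 0.42 (adjusted p = 0.00650) and the mitochondrial DNA helicase Twnk by 0.30 (adjusted p = 0.0123). The coactivator Ppargc1a (−0.64, adjusted p = 0.0116), Gabpb1, a subunit of a factor known to bind promoters of respiratory genes (−0.65, adjusted p = 0.00131), and Tfam, which packages mitochondrial DNA (−0.49, adjusted p = 0.0118), were lower. The call of Tfam was lost without combination replicate 2 (adjusted p = 0.0517).

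In the single treatments at 96 h, 6.58% of all genes were called higher and 8.08% lower in T3, and 4.21% and 3.04% in quetiapine. T3 gave 3 citric acid cycle genes higher and 0 lower (Idh3a by 0.33, Ogdh by 0.32 and Pdha1 by 0.31), and quetiapine 0 higher and 2 lower (Suclg2 −0.59 and Idh3b −0.31). Among the assembly factors T3 gave 4 higher and 2 lower, led by Cox17 at 0.69 (adjusted p = 0.00772), and quetiapine 2 higher, Sdhaf4 at 0.60 and Cox17 at 0.51, and 1 lower, Oxa1l at −0.37. Regulators gave 1 lower in each, Gabpb1 in T3 (−0.51) and Ppargc1a in quetiapine (−0.65), and carriers 1 lower in quetiapine, Etfb (−0.59). Of these calls, that of Cox17 in T3 and that of Oxa1l in quetiapine were kept without any single array, and the others were lost in 2 to 11 of 12 cases, Idh3a in T3 most often (adjusted p up to 0.149, without control replicate 3). With the replicate block, which called 8.96% of all genes higher and 12.5% lower in quetiapine and 11.9% and 18.2% in T3, quetiapine gave 2 assembly factors higher and 5 lower, 2 carriers lower and 2 regulators lower, and T3 gave 1 carrier lower, and 1 regulator higher and 3 lower.

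**Figure D5:**
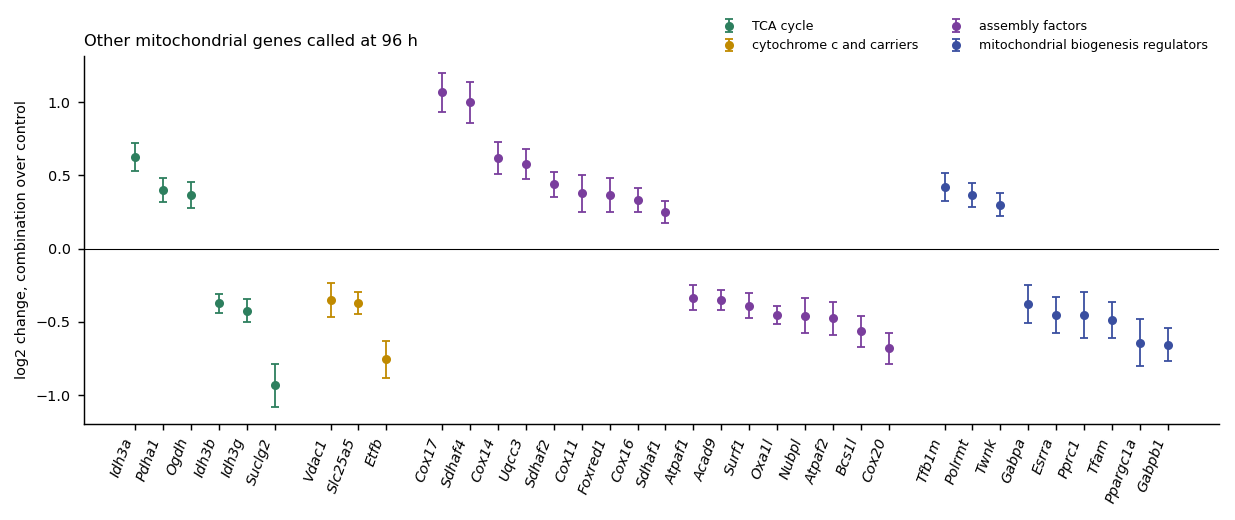
Log2 change in the combination against control at 96 h (points, with SE bars from limma) of the called genes of 4 other mitochondrial lists, in order of list and change. Cox17 and Sdhaf4 are highest at 1.07 and 1.00, and Suclg2 is lowest at −0.93, beyond the span of the oxidative phosphorylation genes, whose called changes lie between −0.40 and 0.52.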

How the data were processed

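RNA from rat OPC cultures was measured on 24 Affymetrix arrays, 3 in each of 8 groups, and log2 expression values were used as the authors deposited them, the output of RMA, which corrects background, sets all arrays to 1 distribution by quantiles and summarises the probes of a set. The submitters' processing notes name RMA and limma, and versions and a genome build are not given in the sources used here. Cultures of day 0 cultures and the raw signals were not used here. No coordinates or sequences were used.

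The array carried 31099 probe sets. Leaving aside 57 controls, 31042 were tested, of which 20826 carried 1 symbol in the array annotation (14217 genes), 436 several and 9780 none. For 7 probe sets the symbol rule matched 1 of several symbols, and these were left out, as was any gene the annotation did not list. The number of arrays limits the precision.

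Models were fitted in limma 3.58.1 under R 4.3.3 separately to the 12 arrays at each time, with 4 group means and no replicate term, and to all 24 arrays for comparisons between times. P values were adjusted over 31042 probe sets. A gene was called at an adjusted p under 0.05. The further limit of 1.5-fold named in the study's legend was an alternative. The study's text names no replicate term, so the replicate number entered as a fixed block in an alternative fit. Each biological replicate supplied all conditions according to the deposited design, so the number pairs the arrays. Deviations from group means correlated at 0.430 to 0.777 in the 18 pairs with the same number at 48 h and at −0.681 to −0.00478 in the 36 other pairs, and at 0.309 to 0.690 and −0.583 to 0.243 at 96 h. Other alternatives centred arrays on their medians, kept probe sets with a mean log2 of at least 6, took the lowest-mean probe set of each gene, or left out each array in turn.

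The genes, the 12 lists set beside them (150 genes, 139 measured) and the tests were chosen with earlier results of these data known. Named were the genes of complex II, the isoform genes and Atp5if1, up to 3 called genes each way in a complex for each treatment against control, or the largest change where none was called, up to 3 called each way between times, and up to 3 called each way in other lists at 96 h. Genes that only the replicate block called, the remaining core subunits of complex I and the remaining calls between times were named after their values were seen. Among marker lists, those for neurons gave 2 genes higher and 2 lower in the combination at 96 h, those for vascular cells 1 and 1, and lineage transcription factors 1 higher and 0 lower. Over all genes, 15.2% were called higher and 20% lower there.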

Additional observations from a re-analysis of the deposited data

Results flagged for a closer look

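The change in the combination against control was called different between 96 and 48 h for 4 oxidative phosphorylation genes, by a test of the difference itself in limma. Over all genes, 4.91% were called higher and 3.26% lower in that test. The difference, as the log2 change at 96 h less that at 48 h, was 0.50 for Ndufs6 (adjusted p = 0.0188), 0.35 for Cox4i2 (adjusted p = 0.0395), −0.38 for Ndufs7 (adjusted p = 0.0463) and −0.44 for Ndufs8 (adjusted p = 0.0374). Each was no longer called in at least 3 of the 24 cases with 1 array left out of that fit. Ndufs6 was lost least often, and Ndufs7 was lost in most of the cases. Not all 4 were kept when the arrays were centred on their medians. With the replicate block all 4 were called again (adjusted p of 0.000360 to 0.0174). The mean of the Cox4i2 probe set was under 6.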

How the results depend on the processing

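With the replicate block the number of oxidative phosphorylation genes called was 17 in the combination against control at 96 h (10 in the fit without it), 6 in T3, 2 in quetiapine, 2 in the combination against T3 and 5 against quetiapine at that time. At 48 h it was 5 in the combination against control and 1 in quetiapine against T3. Between 96 and 48 h it was 28 in the combination (14 without the block), 4 in T3 and 4 in quetiapine. Replicates differed, and the part of this difference in the calls missed without the block was not tested. Taking the lowest-mean probe set of each gene gave 1 call in T3 against control at 96 h and 1 in quetiapine against T3 at 96 h, where the main probe sets gave 0. Keeping probe sets with a mean of at least 6 left 0 calls in the combination against quetiapine, since Cox4i2 was no longer tested. Centring the arrays left 2 calls for the difference between times of the combination, of 4. With a fold change over 1.5 also required, no gene was called in any comparison.

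Leaving out 1 array at a time gave 6 to 11 calls in the combination against control at 96 h, 5 to 19 in the combination between times, 0 to 4 for its difference between times, 0 to 2 in the combination against quetiapine, 0 to 1 in T3 against control at 96 h, 0 to 3 in T3 between times and 0 to 1 in quetiapine between times, and 0 throughout in the others.

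The sign of 4 single values changed, and the cause was not tested. With 1 array left out, Cox6b2 in T3 against control ranged from −0.373 to 0.0464 at 48 h, the highest value without control replicate 1, and from −0.887 to 0.0336 at 96 h, again highest without control replicate 1. Atp5if1 in quetiapine at 96 h was 0.0613 on its lowest-mean probe set, and Ndufv3 in the combination between times was −0.0446 on its lowest-mean probe set. Over the genes and comparisons that the naming rule selected, against control and between times, 824 of the other alternative values kept their direction and side of the threshold, 27 lost the call and 12 gained it. Dim probe sets, 3 arrays a group and mixed cultures limit all of these values.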

Other observations

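The array also held probe sets for COX1 and COX2, the subunits of complex IV made from mitochondrial DNA, which the symbol rule did not take and which were chosen after their values were seen. COX1 measured 13.95, 13.94 and 13.87 in the combination at 96 h and 13.96, 13.99 and 14.01 in control, a difference of −0.07 (SE 0.0613, adjusted p = 0.478 in limma). COX2 measured 13.83, 13.84 and 13.76 in the combination and 13.89, 13.92 and 13.98 in control, a difference of −0.12 (SE 0.0647, adjusted p = 0.201). For both genes the 3 combination arrays were below the 3 control arrays, by amounts that did not pass the test. The highest value on an array was 14.33 to 14.35 in the combination and 14.12 to 14.17 in control at 96 h. Both genes thus lay near the top of the scale, which limits what their values can show.

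Second probe sets gave other values for further genes. That of Ndufa9, an accessory subunit of complex I, had a log2 change of −0.35 in the combination against control at 96 h (adjusted p = 0.208, and 0.00236 with the replicate block), while the main one had −0.09 (adjusted p = 0.596). That of Atp5po, which links the catalytic and membrane parts of complex V, was called higher in the combination at 96 h than at 48 h, by 0.32 (adjusted p = 0.0139).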
